A study of Rattus norvegicus with 3 samples.

Results

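The HOX clusters and their Meis and Pbx cofactors were followed in rat induced pluripotent stem (iPS) cells and in cultured adult rat cells. The members are the array probes whose gene name, without the endings _predicted and _mapped, is a gene of the Hoxa, Hoxb, Hoxc or Hoxd cluster or of the Meis or Pbx family. This name rule used no measured value. It took 29 of the 35561 genes or transcripts named on the array, through 36 of its 41012 gene probes. Of these, 29 were HOX probes of 24 genes and 7 were cofactor probes of 5 genes, among them Meis2, Meis3, Pbx2 and Pbx3.

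Total RNA of 3 samples of untreated iPS F65 cells was labelled with Cy3. These cells were kept on irradiated mouse embryonic fibroblasts in medium with serum and a serum replacement. Whether RNA of the mouse cells was part of the iPS F65 signals was not tested. Each sample was hybridised on its own 2-colour Agilent array against the same untreated adult RNA, mix1, labelled with Cy5. Mix1 combined cells of rat bone marrow with primary fibroblasts of the rat ear, each cultured in medium with fetal bovine serum. The labels give no age or strain for the animals, no clone number beyond F65, no agents used for reprogramming and no proportions for mix1. Nor do they say that the 3 iPS samples came from separate cultures, so each p-value measures only how far these samples lie apart, which could be technical. Mix1 is 1 control sample, and its own spread is not in any p-value. No array had the dyes swapped, so a dye effect and the difference between the cells cannot be told apart. In a mixture, fewer cells of a type and less RNA per cell cannot be told apart either.

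HOX genes encode homeodomain transcription factors that give cells their position along the body axis. Vertebrates keep them in clusters named A to D, in which genes at the 3′ end act in the head and neck region and genes at the 5′ end act towards the tail. Meis and Pbx proteins belong to the TALE class of homeodomain proteins and bind DNA together with HOX proteins. Pluripotent cells are known to hold the clusters under Polycomb repression, while cultured fibroblasts are known to keep the HOX genes of the body site they came from.

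The arrays were much alike in detection, with 57.1% to 61.2% of gene spots well above background for iPS F65 and 58.3% to 62.1% for mix1. The log2 ratios of array pairs correlated across probes at 0.993 to 0.994. A check of the labels on marker genes gave the contrast that they name for fibroblast, myeloid and pluripotency markers. Erythroid markers, also of bone marrow, did not show it, with 2 tested, 1 higher in iPS F65 and 0 lower. Of the fibroblast markers, 10 of 10 tested were lower in iPS F65, with Col1a1 and Col1a2, chains of type I collagen, at log2 ratios of -6.90 and -8.32. Of the myeloid markers, 8 of 9 tested were lower, with Cd68 at -4.69. Of the pluripotency markers, 5 of 6 tested were higher, with the stem cell factors Pou5f1 (Oct4), dark in mix1 and at least 4.64-fold higher, and Sox2, which has another name in the files and was matched through RefSeq, at 3.14. Neural markers went both ways, with 3 of 5 tested higher and 1, Nes, lower at -1.37. Pax6, a factor of early neural cells, was dark in mix1 and at least 39.7-fold higher. Medians over the fibroblast, myeloid, pluripotency and neural markers were -7.58, -5.57, 3.30 and 2.55, against 0.27 over all probes tested. The neural median was 0.92, with 2 markers higher, with loess. Here and below, "with loess" means normexp with uneven local backgrounds replaced and then loess, which changes the background correction as well as the dye scaling. With local backgrounds as given instead, 9 fibroblast and 5 myeloid markers were called lower and 4 pluripotency markers higher. Pou5f1 was then at 0.61 and not called, and 1 neural marker was higher and 1 lower.

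Of the 29 HOX probes, 7 lie on a coding stretch of the homeobox that the clusters share. They are shown because they include dark, lower and uncalled genes at the same stretch of the homeobox, and because a pair of them carries the same gene name. Capitals mark the 24 bases that encode the same stretch of the homeodomain in each, and the sequences are those of the array files, 5′ to 3′.
Hoxa5 probe A_44_P292669: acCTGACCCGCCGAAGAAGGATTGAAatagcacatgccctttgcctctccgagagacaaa
Hoxc4 probe A_44_P531821: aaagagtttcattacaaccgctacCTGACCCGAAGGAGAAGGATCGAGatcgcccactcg
Hoxc6 probe A_44_P538576: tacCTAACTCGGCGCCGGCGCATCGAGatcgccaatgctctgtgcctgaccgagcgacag
Hoxc6 probe A_42_P692008: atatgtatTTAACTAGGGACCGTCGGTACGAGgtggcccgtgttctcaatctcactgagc
Hoxb9 probe A_44_P205783: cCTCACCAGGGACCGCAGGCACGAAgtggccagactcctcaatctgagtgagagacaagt
Hoxb8 probe A_44_P466089: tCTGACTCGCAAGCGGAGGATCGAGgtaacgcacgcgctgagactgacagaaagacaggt
Hoxc10 probe A_44_P372457: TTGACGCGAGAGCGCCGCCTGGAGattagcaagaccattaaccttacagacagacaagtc
Placed over each other at the marked stretch, pairs of these probes were identical at 43.2% to 73.7% of the bases they have in common. Whether RNA of 1 HOX gene also bound the probe of another was not tested.

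HOX genes were mostly either not well above background in both cell types or lower in iPS F65. Of the 29 HOX probes, 14 (48.3%) were dark, meaning that neither channel was well above background on any of the 3 arrays, against 30.6% of all probes of the array. A further 2 probes, among them that of Hoxc5, were above background on some arrays only. The remaining 13 probes, of 10 genes, were above background in at least 1 channel on all arrays and were tested. Of these 13, 8 were lower in iPS F65, 1 was higher and 4 were not called (limma, adjusted p under 0.05 over all 25836 probes tested and a change of at least 2-fold). Over all probes tested, 24% were called lower and 31.3% were called higher. The median log2 ratio of the 13 HOX probes was -1.95. All 13 were well above background in mix1 on every array, and 6 of the 13 were so in iPS F65. The other 7 passed the filter through mix1 alone, so they could hardly come out otherwise than lower, and they make up 7 of the 8 lower calls. Among the 6 above background in both channels, 1 was lower and 1 higher, so the count of 8 and the median are no measure of how HOX genes differ from other probes. Over all probes of the array these shares were close to each other, 56.9% in mix1 and 56.2% in iPS F65. The fibroblast and myeloid markers moved with the HOX genes that were lower. Summed over the 10 fibroblast markers tested, the processed signal was 19281 to 25105 in iPS F65 and 2042891 to 2627780 in mix1. Over the 9 myeloid markers it was 3164 to 3969 and 218691 to 255857. Of these markers, 1 fibroblast and 2 myeloid ones were not well above background in iPS F65 on any array. Their part in the HOX differences was not tested.

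**Figure D1:**
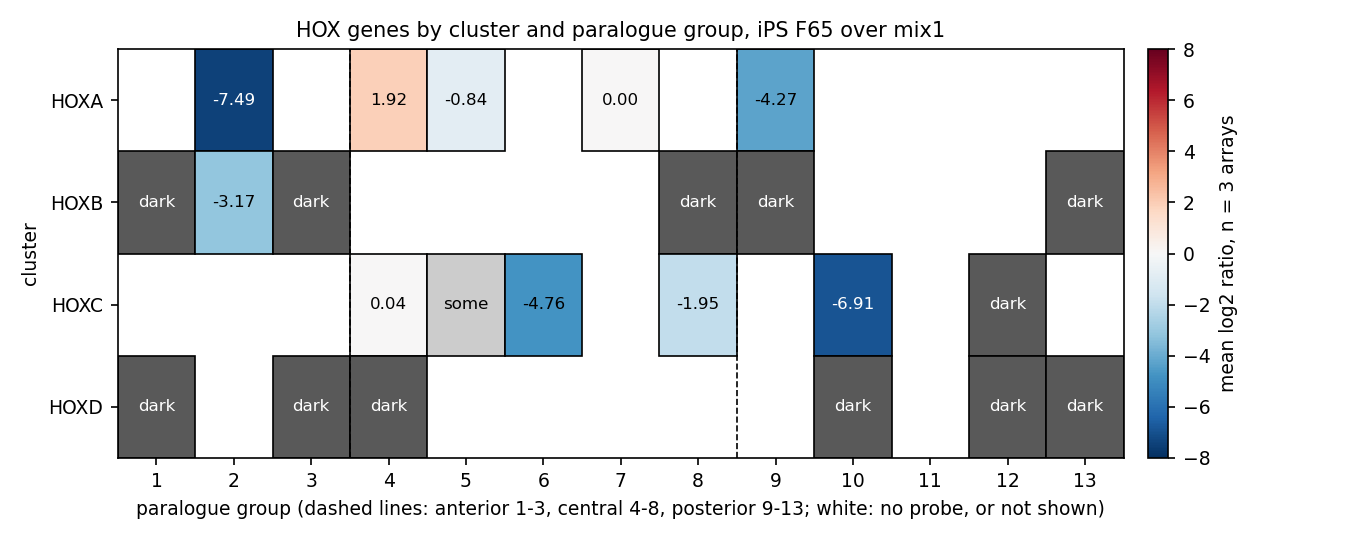
Mean log2 ratio of iPS F65 over mix1 (colour and number, n = 3 arrays) for the HOX genes shown, by cluster (vertical) and paralogue group (horizontal), from the brightest probe of a gene. Dark grey boxes were below that level in both channels on all arrays, light grey boxes (some) were above it on some arrays, and white means that no probe has that name or that the gene is not shown. Hoxa4 is the single gene above 1, at 1.92, every HOXD box is dark, and the HOXC box of group 6 shows the brighter of 2 disagreeing Hoxc6 probes. That probe, A_42_P692008, lies where RefSeq's order has Hoxc9.

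The clusters had different shares of detected genes, although none of the differences between clusters was tested, since the probes are no replicates. In HOXA, 0 of 8 probes were dark, 7 were tested, 3 were lower and 1 was higher. In HOXC, 1 of 7 was dark (Hoxc12), 5 were tested and 4 were lower. In HOXB, 6 of 7 were dark (Hoxb1, Hoxb3 with 2 probes, Hoxb8, Hoxb9 and Hoxb13) and the remaining probe, of Hoxb2, was lower. In HOXD, 7 of 7 were dark, which are the probes of Hoxd1 (2), Hoxd3, Hoxd4, Hoxd10, Hoxd12 and Hoxd13. Signals of the 14 dark probes were 12.7 to 68.0 in iPS F65 and 12.9 to 49.2 in mix1, in the arbitrary units of the scanner software, which puts a surrogate value in place of a spot that is too dim. By the software's laxer flag for a positive and significant signal, 6 of the 29 HOX probes were without signal in both channels on every array. Hoxd13, a gene of digits and the urogenital tract, was the dark probe with the most uneven channels. Its signal was 68.0, 47.4 and 62.3 in iPS F65 and 20.0, 13.8 and 14.2 in mix1 on the arrays of replicates 1, 2 and 3. The iPS values were higher on each array and were positive and significant by the laxer flag on 3 of 3, but were not well above background on any.

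Hoxa2, which patterns the hindbrain and the neural crest of the second arch, was bright in mix1 and dark in iPS F65. Its probe (chr4:80740267-80740326, minus strand, build rn3 of the array files) read 17.2, 14.1 and 14.1 in iPS F65 and 2552, 2815 and 2767 in mix1. The groups were far apart, and all 3 iPS values were dark, so the fold is a bound. Hoxa2 was at least 41.2-fold lower in iPS F65 (measured log2 ratio -7.49 ± 0.24, SD, n = 3; limma adjusted p = 1.35e-05). Like every tested probe dark in iPS F65 below, it passed the filter through mix1 alone and could only come out lower. The SD and p of such a probe rest on iPS signals near background and add no support for the direction. Here and below, "at least" sets the mean mix1 level against the higher of the probe's own iPS level and the lowest level above background on each array. Each such bound, also those of the markers above, holds for the processed signals only. With local backgrounds as given and loess, the log2 ratio was -2.96 for Hoxa2, -2.42 for Hoxc10 and -0.71 for Hoxb2, smaller changes than their bounds. In that setting every other bound given in the report was missed as well. With loess, the ratios of Hoxc10 (-4.69) and Hoxb2 (-1.81) were under their bounds, and Hoxa2 (-5.47) kept its bound. Both Hoxa9 probes and, among the genes below and the markers, XM_575152, Irx3, Pax6 and Pou5f1 also fell under their bounds with loess. Those of RGD1564605 and LOC681895 held with loess.

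Hoxb2, the paralogue of Hoxa2 on chromosome 10 (chr10:85101106-85101165), was the only named HOXB gene that was tested. It read 14.5, 45.2 and 43.3 in iPS F65 and 227, 300.0 and 303 in mix1. The iPS value of replicate 1 was well below the others, and no iPS value was well above background. Hoxb2 was at least 4.17-fold lower (log2 ratio -3.17 ± 0.69, SD, n = 3; limma adjusted p = 0.0019).

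Among the central genes, Hoxa4, which helps to pattern the neck vertebrae, was the only HOX gene higher in iPS F65. It read 1440, 1558 and 1652 in iPS F65 and 380, 417 and 431 in mix1 (chr4:80767097-80767156). Every iPS value was above every mix1 value, and both channels were above background on all arrays. Its log2 ratio was 1.92 ± 0.02 (SD, n = 3), which is 3.78-fold (limma adjusted p = 6.72e-06). The sign was the same in each processing tried, but the ratio fell to 0.85 when local backgrounds were used as given.

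Hoxa5, a gene of the lung and the upper trunk that lies next to Hoxa4, was bright in both cell types and differed by less than 2-fold. Its probe A_44_P262274 read 2019, 2329 and 2404 in iPS F65 and 3629, 4192 and 4216 in mix1. The second Hoxa5 probe, on the homeobox stretch shown above, read 976, 1063 and 1177 against 1719, 1889 and 1961. In both, each mix1 value was above each iPS value, and the log2 ratios were -0.84 ± 0.02 and -0.79 ± 0.05 (SD, n = 3). These passed the limma test (adjusted p = 2.46e-05 and 8.62e-05) but not the 2-fold limit. Both passed that limit under other processing, at -1.27 and -1.18 with loess and at -1.11 and -1.07 with each array's median set to 0.

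Hoxa7 and Hoxc4, which act in the trunk and the neck, had like signals in both channels. Hoxa7 read 85.0, 110.4 and 142 in iPS F65 and 80.3, 111 and 150 in mix1, with a log2 ratio of 0.00 ± 0.08 (SD, n = 3). Hoxc4 read 103, 189 and 181 in iPS F65 and 108, 176 and 171 in mix1, with a log2 ratio of 0.04 ± 0.09. For these 2 genes the channels overlapped and the ratios took both signs (limma adjusted p = 0.97 and 0.43). Hoxc5 was above background on 2 of 3 arrays in each channel, with ratios of 0.10, 0.18 and 0.31 that were not tested.

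Hoxc8, a gene of the thoracic region, was lower in iPS F65 and was above background in both channels on every array. It read 124, 161 and 131 in iPS F65 and 485, 580.5 and 542 in mix1 (chr7:141833940-141833999). The channels did not overlap, and the log2 ratio was -1.95 ± 0.10 (SD, n = 3), which is 3.87-fold lower (limma adjusted p = 4.05e-05). Of the 8 lower HOX probes, it was the only one with an iPS signal well above background on all arrays.

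The 2 probes named Hoxc6 were both lower but by unequal amounts. Probe A_44_P538576 (chr7:141853223-141853282) read 56.9, 60.4 and 68.3 in iPS F65 and 165, 195 and 199 in mix1, a log2 ratio of -1.59 ± 0.09 (SD, n = 3). Probe A_42_P692008 (chr7:141826274-141826333) read 49.8, 65.9 and 63.9 in iPS F65 and 1449, 1712 and 1663 in mix1, a log2 ratio of -4.76 ± 0.09 (limma adjusted p = 4.56e-05 and 7.38e-06). On both probes the iPS signal was above background on 1 of 3 arrays. The positions also differ. The first of them lies between the probes of Hoxc8 and Hoxc5, where RefSeq's order of the cluster has Hoxc6. The other lies between the probes of Hoxc10 and Hoxc8, where RefSeq's order has Hoxc9, a gene for which no probe carries the name. Read against the sequences above, A_42_P692008 was identical to the Hoxb9 probe at 38 of 53 bases (71.7%) and to the other Hoxc6 probe at 35 of 55 (63.6%). Within the capitals it matched Hoxb9 at 17 of 24 bases and the other Hoxc6 probe at 16 of 24. It is called by its file name here, and its gene was not settled.

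Among the posterior genes, Hoxc10 and Hoxa9 were lower in iPS F65 and the other 6 genes were dark. Hoxc10, a gene of the lumbar region and the hindlimb, read 17.2, 13.95 and 13.75 in iPS F65 and 1750, 1792 and 1848 in mix1 (chr7:141813035-141813094). Its iPS channel was dark on all arrays, so the limit given for Hoxa2 applies. Hoxc10 was at least 27.3-fold lower (log2 ratio -6.91 ± 0.22, SD, n = 3; limma adjusted p = 1.30e-05). Hoxa9, a gene of blood progenitors and the limb, had 2 probes, and both were dark in iPS F65. Its brighter probe (chr4:80801997-80802056) read 45.3, 66.8 and 62.7 in iPS F65 and 1011, 1125 and 1199 in mix1, which is at least 16.6-fold lower (log2 ratio -4.27 ± 0.20). The other, A_44_P387086, read 18.1, 18.7 and 18.4 against 300.3, 332 and 358 and was at least 5.02-fold lower (-4.16 ± 0.11).

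**Figure D2:**
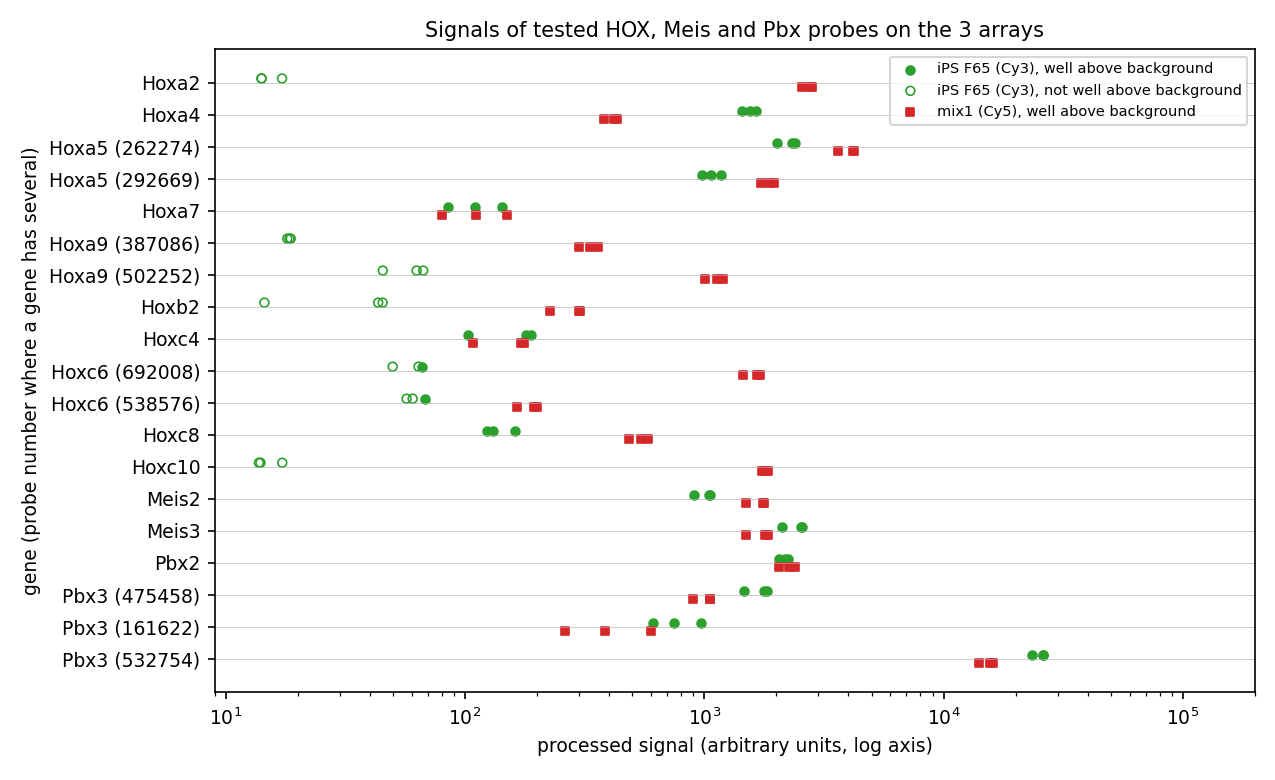
Processed signal (horizontal, arbitrary units, log axis) of the tested HOX, Meis and Pbx probes shown (vertical) on the 3 arrays, with iPS F65 as green circles and mix1 as red squares. Open symbols were not well above background. The open green circles of Hoxa2 and Hoxc10 lie at 13.8 to 17.2, where mix1 reads 1750 to 2815, while the channels of Hoxa7, Hoxc4 and Pbx2 overlap.

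All 9 called HOX probes kept their direction when the mean signals were corrected with local backgrounds as given and then normalised by loess, but none was then called (limma adjusted p = 0.0572 for Hoxa4 to 0.258 for Hoxc6 probe A_44_P538576). At an unadjusted p under 0.05 that setting had 4 HOX probes lower and 1 higher, or 5 of 13, where 11138 of all 25836 probes passed that p. In it, 2793 probes of the array were called higher and 2359 lower. With uneven local backgrounds replaced by the array median, 10 HOX probes were lower and 1 was higher.

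Anterior paralogues (groups 1 to 3) and posterior ones (groups 9 to 13) could not be compared by ratio. The tested genes of both groups (Hoxa2, Hoxb2, Hoxa9 and Hoxc10) were dark in iPS F65 on all arrays and passed the filter through mix1 alone, so they could only come out lower and their ratios are set by signals near background. Of 9 anterior probes, 6 were dark and 2 were tested, both lower. Of 9 posterior probes, 6 were dark and 3 were tested, all lower. Of 11 central probes (groups 4 to 8), 2 were dark and 8 were tested, of which 3 were lower, 1 was higher and 4 were not called. As a description, the median log2 ratio was -5.33 over 2 anterior genes, -5.59 over 2 posterior genes and -0.42 over 6 central genes. The central counts and median include probe A_42_P692008 under its file name Hoxc6, although it lies where RefSeq's order has Hoxc9. The posterior minus the anterior median was 0.02, -0.35 and -0.45 on the arrays of replicates 1, 2 and 3, a mean of -0.26 ± 0.25 (SD, n = 3 arrays). An exact sign permutation over 3 arrays cannot give a two-sided p below 0.25, and none was computed. The value rests on 4 genes. It was -4.03 with anterior as groups 1 to 4, and its sign turned to 0.13 with no filter on dim probes and to 0.57 with A_42_P692008 counted in group 9.

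The cofactors, which bind DNA together with HOX proteins, were above background in both channels on every array for 7 of 7 probes. None of the 7 was called, against 55.3% of all probes tested called in either direction. That share includes probes above background in 1 channel only. Of the 20540 probes above background in both channels, 6038 were called higher and 3744 lower. At an unadjusted p under 0.05, limma had 1 of the 7 lower and 5 higher, all by less than 2-fold, where 24730 of all 25836 probes tested passed that p. The median log2 ratio was 0.50 over the 7 probes, of which 3 are of Pbx3, and 0.36 over the 5 genes, against 0.27 over all probes. The median over the 7 probes was 0.04 with loess, 0.21 with backgrounds as given and 0.23 with array medians at 0.

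Meis2, a TALE factor of the limb, eye and brain, read 908, 1049 and 1057 in iPS F65 and 1488, 1754 and 1773 in mix1 (chr3:101813250-101813309). All mix1 values were above all iPS values, with a log2 ratio of -0.73 ± 0.02 (SD, n = 3). It passed the 2-fold limit with loess (-1.14) and with each array's median at 0 (-1.01). Meis3, which acts in the hindbrain, read 2117, 2564 and 2546 in iPS F65 and 1492, 1789 and 1839 in mix1, a log2 ratio of 0.50 ± 0.03. The ratio of Meis3 was 0.04 with loess and 0.23 with array medians at 0.

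Pbx2, a broadly expressed cofactor, read 2058, 2176 and 2235 against 2055, 2268 and 2385, a log2 ratio of -0.05 ± 0.05 (SD, n = 3) with overlapping channels. Pbx3, a partner of HOX proteins in the nervous system and in leukaemia, was higher in iPS F65 on each array with each of its 3 probes, but by less than 2-fold. Its brightest probe read 23405, 26006 and 25944 in iPS F65 and 14028, 15638 and 16028 in mix1, a log2 ratio of 0.72 ± 0.02. The ratios of the others were 0.75 ± 0.05 and 0.96 ± 0.26, and the last was called higher, at 1.09, without the array of replicate 2.

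**Figure D3:**
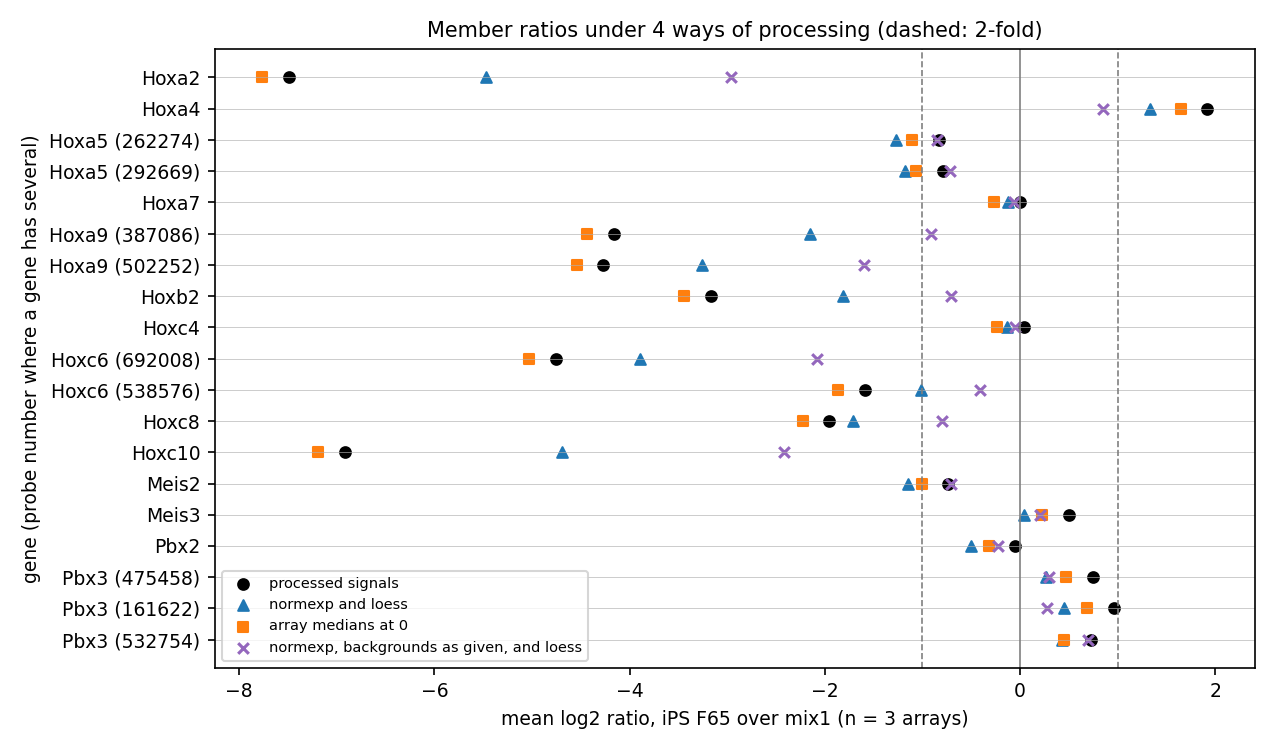
Mean log2 ratio of iPS F65 over mix1 (horizontal, n = 3 arrays) of the tested probes shown (vertical) under 4 ways of processing, with dashed lines at the 2-fold limit. The ratios of Hoxa2 (-7.76 to -2.96) and Hoxc10 (-7.19 to -2.42), dark in iPS F65, have wide ranges, while Hoxa5 and Meis2 cross the line at -1 with loess and with array medians at 0.

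Several HOX genes are on the array under other names, and the probes beside the members were found by position. The named probes of clusters A, B, C and D lie on chromosomes 4, 10, 7 and 3. All 8 HOXA probes were on the minus strand and all 21 others on the plus strand. Within 20 kb of the stretches they span lay 21 further probes, of which 11 were dark and 1 was above background on some arrays only. Of the 9 tested, 7 were lower and 2 were not called, where 24% of all probes tested were called lower. LOC681895, RGD1305450, XM_575152 and both probes of RGD1564605 passed the filter through mix1 alone, so they could hardly come out otherwise than lower. The count is therefore no measure of how these probes differ from others. AA859053 and TC528432 were lower with both channels above background on all arrays. The 7 lower probes stayed called with loess and with array medians at 0, and 1 of them, AA859053, with backgrounds as given.

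RGD1564605, which RefSeq lists as an older name of Hoxa11, a posterior gene of the limb and uterus, was lower with both of its probes. The array file's description likens it to another HOXA protein, so its gene was not settled and the file's name is kept. The probes lie beyond Hoxa9 (chr4:80810470-80810529 and chr4:80811423-80811482, minus strand) and were dark in iPS F65. The first read 17.6, 16.4 and 16.6 in iPS F65 and 1310, 1429 and 1477 in mix1, which is at least 21.4-fold lower. The other was at least 4.57-fold lower. RGD1305450, an older name of Hoxc11, read 49.97, 65.9 and 69.3 in iPS F65 and 684, 774 and 846 in mix1, a log2 ratio of -3.65 ± 0.11 (SD, n = 3). R1b and RGD1562142, older names of the trunk genes Hoxb7 and Hoxb6, were above background in both channels and were not called, at -0.16 ± 0.23 and -0.46 ± 0.09. HOXB thus held genes with signal in both cell types that the named probes did not show. Older names of Hoxa3 and Hoxc13 were dark.

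In the HOXD cluster, where every named probe was dark, 1 probe was bright in mix1. XM_575152 (chr3:57221550-57221609) lies between the probes of Hoxd10 and Hoxd4 on the minus strand, opposite to the HOXD genes, and the files give it no gene symbol. It read 25.8, 14.5 and 14.2 in iPS F65 and 2190, 2287 and 2311 in mix1. The iPS channel was dark on all arrays, so the limit given for Hoxa2 applies. XM_575152 was at least 34.4-fold lower (log2 ratio -7.02 ± 0.53, SD, n = 3; limma adjusted p = 9.50e-05). Likewise, TC528432 lies between Hoxc10 and the Hoxc6 probe A_42_P692008 on the strand opposite to HOXC (chr7:141817740-141817799). It read 198, 241 and 241 in iPS F65 and 1116, 1253 and 1250 in mix1, a log2 ratio of -2.42 ± 0.07. LOC681895, on the strand opposite to HOXA between Hoxa2 and Hoxa4, was at least 1.93-fold lower.

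**Figure D4:**
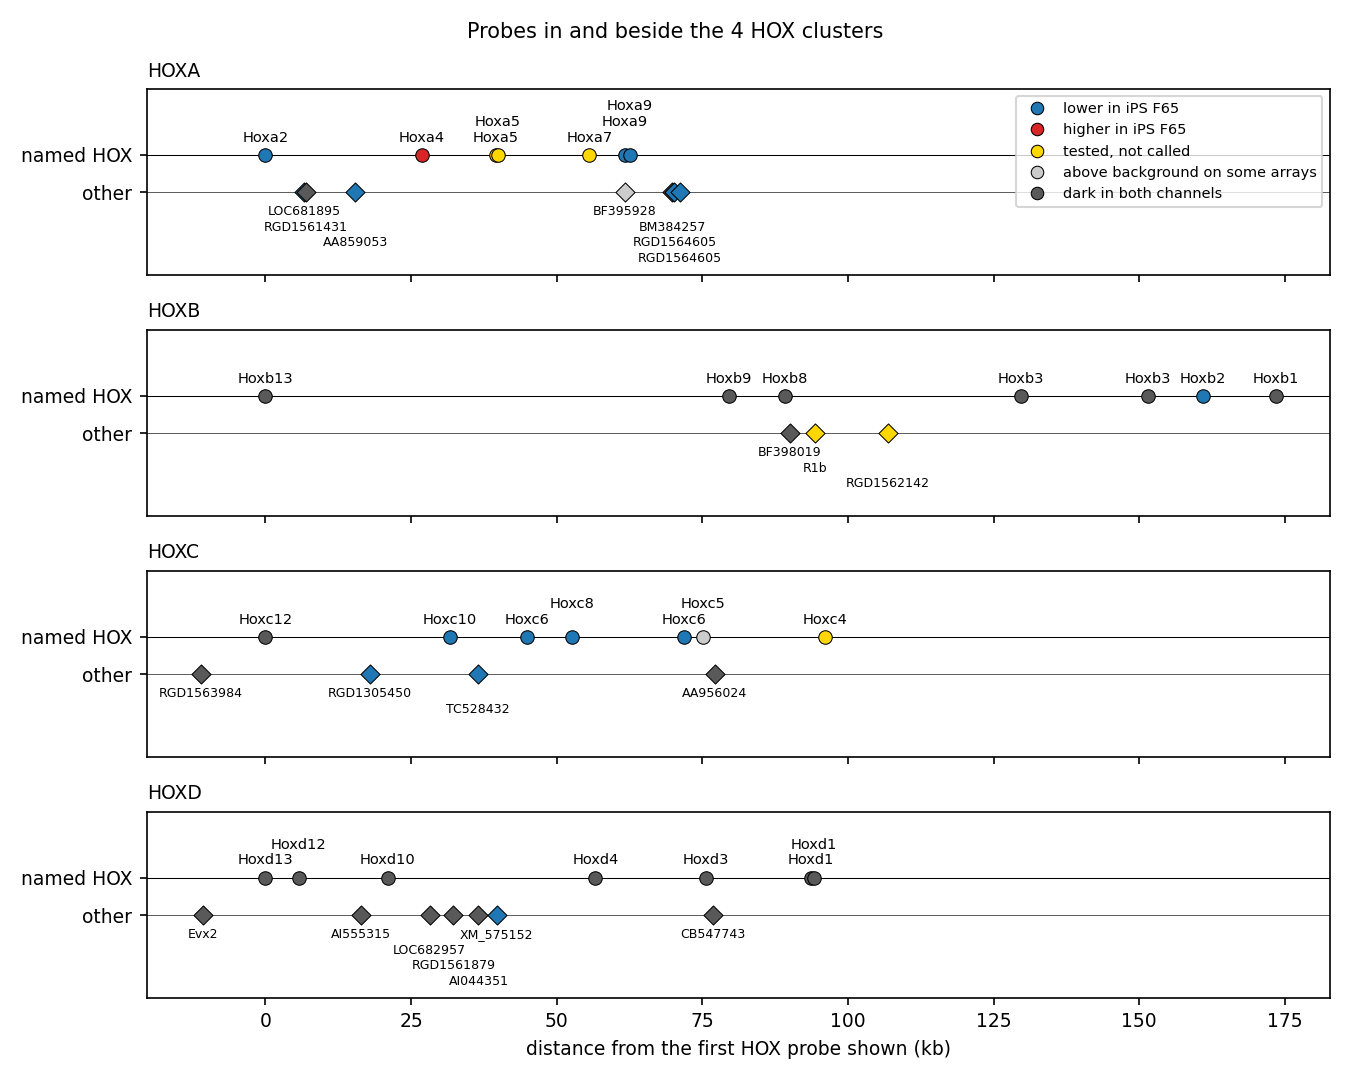
Named HOX probes (circles) and other probes within 20 kb (diamonds) of each cluster, by distance in kb from the first named probe shown (horizontal), coloured by the result of the test. All 7 named HOXD probes are dark, and XM_575152, 39.7 kb from Hoxd13, is the single tested probe of that panel.

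The regulators of HOX genes were taken from lists. A gene is described by its brightest probe, and over all 21832 genes tested 24.5% were called lower and 30.9% higher. Of 20 Polycomb genes tested, which encode the complexes that silence HOX genes, 7 were higher and 3 lower, with a median log2 ratio of 0.60. The largest increases were those of Pcgf6 (3.25 ± 0.07, SD, n = 3), Mtf2 (2.07 ± 0.03) and Eed (1.89 ± 0.02), and the decreases were those of Phf1 (-1.86 ± 0.06), Cbx7 (-1.84 ± 0.06) and Phc2 (-1.04 ± 0.03), of which Phc2 has another probe that was not called. With loess the split was 4 higher and 5 lower. Of 14 tested genes of the Trithorax side and the H3K27 demethylases, which counter Polycomb, 6 were higher, led by Ash2l (3.24 ± 0.04), Psip1 (2.57 ± 0.01) and Wdr5 (1.56 ± 0.02). With loess and with array medians at 0 it was 4.

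Retinoic acid induces HOX genes, and of 13 tested genes of its synthesis, transport, breakdown and receptors, 3 were higher and 6 lower (median -0.67). Crabp1 and Crabp2, which bind retinoic acid in the cytoplasm, were lower at -5.50 ± 0.04 and -5.29 ± 0.02 (SD, n = 3). Cyp26a1, which breaks it down, was lower at -2.77 ± 1.24, with an iPS signal above background on 1 of 3 arrays. The receptor Rxrg, above background in mix1 on 1 of 3 arrays, was higher at 3.46 ± 0.56, the dehydrogenase Rdh10 at 1.80 ± 0.10 and the carrier Rbp4 at 1.17 ± 0.03, of which Rbp4 was below 2-fold with loess.

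Of 7 tested genes among the Cdx and ParaHox genes and the neighbours of the clusters, 3 were higher and 1 lower. No Cdx gene was tested, since the Cdx probes were all dark, and none of the calls was of a ParaHox gene. Meox2, a homeobox gene of somites and muscle, was higher at 2.52 ± 0.01 (SD, n = 3), and Mtx2 and Lnp, which flank HOXD, at 1.83 ± 0.03 and 1.41 ± 0.01, the last below 2-fold with loess. Hibadh, a neighbour of HOXA, was lower at -1.08 ± 0.03. Of 4 other TALE homeobox genes tested, Pknox1, a Meis relative that pairs with Pbx, was higher at 1.62 ± 0.01. Irx2 was higher at 1.10 ± 0.03, but below 2-fold with loess and with array medians at 0. Irx3 was dark in iPS F65 and at least 12.0-fold lower.

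Of 14 tested partners and modifiers of HOX genes, 3 were higher and 4 lower (median 0.22). Gmnn (geminin) was higher at 2.33 ± 0.01 (SD, n = 3), the insulator protein Ctcf at 1.70 ± 0.02 and Smad4 at 1.44 ± 0.03, the last below 2-fold with loess. Egr2, which sets HOX genes in the hindbrain and was above background in iPS F65 on 1 of 3 arrays, was lower at -4.78 ± 0.31. The growth factor Gdf11, which acts on posterior HOX genes, was lower at -3.43 ± 0.04. With local backgrounds as given, fewer genes of these lists were called. The Polycomb list then had 5 higher and 1 lower, the Trithorax list 4 higher, the retinoic acid list 4 lower, the Cdx and neighbour list 2 higher and 1 lower, the partners 2 higher and 2 lower, and the other TALE genes were not called.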

How the data were processed

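Deposited scanner files of 3 arrays were used (Agilent Feature Extraction 9.5.3.1, positions on rn3, per the file headers). Their intensity values are processed signals, which per the file headers were background-subtracted, dye-normalised within the array by linear and LOWESS scaling, and replaced by surrogates where too dim. The series matrix, deposited as log2 values, held the same Cy3 over Cy5 ratios within 3.1e-06 and served as an alternative. Flagged outlier spots (204 to 213 an array) were dropped, 0 gene spots were saturated, and spots of a probe were averaged. Probes well above background on all 3 arrays in either channel (25836 of 41012) were tested for a mean log2 ratio against 0 with limma 3.58.1 (R 4.3.3; lmFit, eBayes, Benjamini-Hochberg). Calls needed an adjusted p under 0.05 and a log2 ratio of at least 1 in size. On simulated data 186 of 200 changed probes were recovered. The simulation had no background floor, surrogate values or dye effect, so it does not bear on calls near background. Bounds used Aquantile-normalised processed signals. The gene names of 33 of the 36 member probes matched RefSeq (newer assembly, used for names and gene order). The members, gene lists and settings were chosen with earlier results of these data known. Every member could be named, at most 3 called genes per direction of other lists, and the first 3 tested genes of marker lists. The number of arrays limits precision. Alternatives were normexp (offset 50) with loess, with uneven local backgrounds replaced or as given, array medians at 0, other filters on dim probes, outlier spots kept, other paralogue groupings and leaving out each array. Values of some named genes are not reported here, although counts and medians include them.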

Additional observations from a re-analysis of the deposited data

How the results depend on the processing

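HOX calls depended on the background correction and on the filter. The count of HOX probes lower (8) was 0 with local backgrounds as given and 1 when probes had to be above background in both channels (6 HOX probes tested, Hoxc8 remaining), and 8 to 10 in the other settings. The count higher (1) was 0 with backgrounds as given and 2 with no filter, where Hoxd13 was added. Of Meis and Pbx probes (0 either way), 1 was lower (Meis2) with uneven backgrounds replaced and loess and 1 with array medians at 0. Dark HOX probes (14) were 6 by the flag for a positive and significant signal. The posterior minus anterior median (-0.26) was 0.13 with no filter, -4.03 with anterior as groups 1 to 4 and 0.57 with Hoxc6 probe A_42_P692008 in group 9, an alternative chosen after seeing the data. Leaving out each replicate gave 8 to 8 HOX probes lower, 1 to 1 higher, 14 to 14 dark, 0 to 0 cofactors lower, 0 to 1 higher (Pbx3, without replicate 2), and a posterior minus anterior median of -0.40 to -0.17. Over all probes, 56.5% of calls were higher, 47.1% with array medians at 0 and 41.9% with normexp and loess (4761 higher, 6613 lower), while backgrounds as given called 2793 higher and 2359 lower. The normexp and loess setting, which changes background and dye correction together, moved the median of all probes by -0.34. With only probes above background in both channels, 6038 were higher and 3744 lower. No paired analysis was possible because the 3 samples form 1 group against 1 control RNA. Signals near background limit every fold whose iPS channel was dark.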
